A study of Homo sapiens with 6 samples.

Results

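H19, IGF2, MEG3, DLK1, PEG3, PEG10, NNAT, NDN, MEST and CDKN1C are 10 imprinted genes with roles in growth and in neural tissue. They were chosen by symbol from the 59151 gene entries of the deposited table, by a rule that uses no expression value, although earlier results of these data were known when the members were proposed. Expression was measured in forebrain neuron progenitor cells at day 26, grown from H9 cells, an embryonic stem cell line in wide use. The question was what circRTN4(2,3), a circle of RNA spliced from RTN4 transcripts, does in these cells. There were 6 libraries of ribosomal RNA-depleted total RNA in 3 groups of 2. The scramble group had genotype WT and a scrambled control hairpin, while the shRNA1 and shRNA2 groups each carried a different short hairpin RNA listed as a circRTN4(2,3) knockdown. All 3 groups share the H9 origin and the day of culture. The labels number the replicates without saying whether they were separate cultures. Apart from the permutation tests, p-values rest on the spread between 2 libraries of a group, pooled over the groups fitted. That spread may be technical.

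Imprinted genes are transcribed mainly from the copy inherited from 1 parent, which is marked by DNA methylation laid down in the egg or the sperm. They lie in clusters in which a differentially methylated control region sets the choice of copy for several genes at once, often with a noncoding RNA made from the opposite copy. Paternally expressed members such as IGF2, DLK1, PEG10, MEST and PEG3 tend to promote growth, and maternally expressed members such as H19, CDKN1C and MEG3 tend to restrain it. Several are also prominent in the developing brain, among them NNAT and NDN. Gene expression values as analysed here do not tell the parental copies apart, so imprinting itself was not measured.

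Gene levels are given in FPKM, that is, read fragments relative to the length of a gene and to the total of its library, which allows comparison between genes. The library totals recovered from these values were 46634855 reads for scramble replicate 1 and 77187298 to 83629504 reads for the other 5 libraries. The FPKM values of a library summed to 184241 and 237698 in scramble, 204221 and 199128 with shRNA1, and 183517 and 179340 with shRNA2. The scramble libraries were also less alike, with a median SD between replicates of 0.109 on the log2 scale against 0.0355 for shRNA1 and 0.0452 for shRNA2. RTN4, the host gene, was at 40.3 and 38.5 FPKM in the scramble libraries, 34.2 and 34.7 with shRNA1, and 31.2 and 31.3 with shRNA2. Both hairpin groups were below both scramble libraries, with a log2 difference of -0.26 ± 0.0436 (SE) for the mean of both hairpins (limma, Benjamini-Hochberg adjusted p = 0.135). The gene-level value mixes linear and circular RNA of RTN4, so depletion of the circular RNA was not measured. Markers of the labelled cell type were present: the 10 forebrain progenitor markers summed to 235 to 263 FPKM per library, each with a mean of at least 1 FPKM.

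The imprinted genes covered a wide range of levels. NNAT had the highest mean, 227 FPKM over the 6 libraries, which placed it 59th of all 59151 entries. PEG10 followed at 121 FPKM (104th), MEST at 51.9 FPKM (260th), NDN at 22.8 FPKM (631st) and DLK1 at 13.1 FPKM (1284th). These 5 genes were among the 2.17% most abundant entries. CDKN1C stood at 2.87 FPKM. The other members were under the minimum mean of 1 FPKM used for testing: IGF2 at 0.702, H19 at 0.269, MEG3 at 0.0818 and PEG3 at 0.0031 FPKM. Neighbours in this order were separated in all libraries of a group, with exceptions: IGF2 and H19 overlapped in scramble, and NDN and DLK1 overlapped with shRNA2. In the shRNA2 libraries MEG3 was above H19, the reverse of the scramble libraries.

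**Figure D1:**
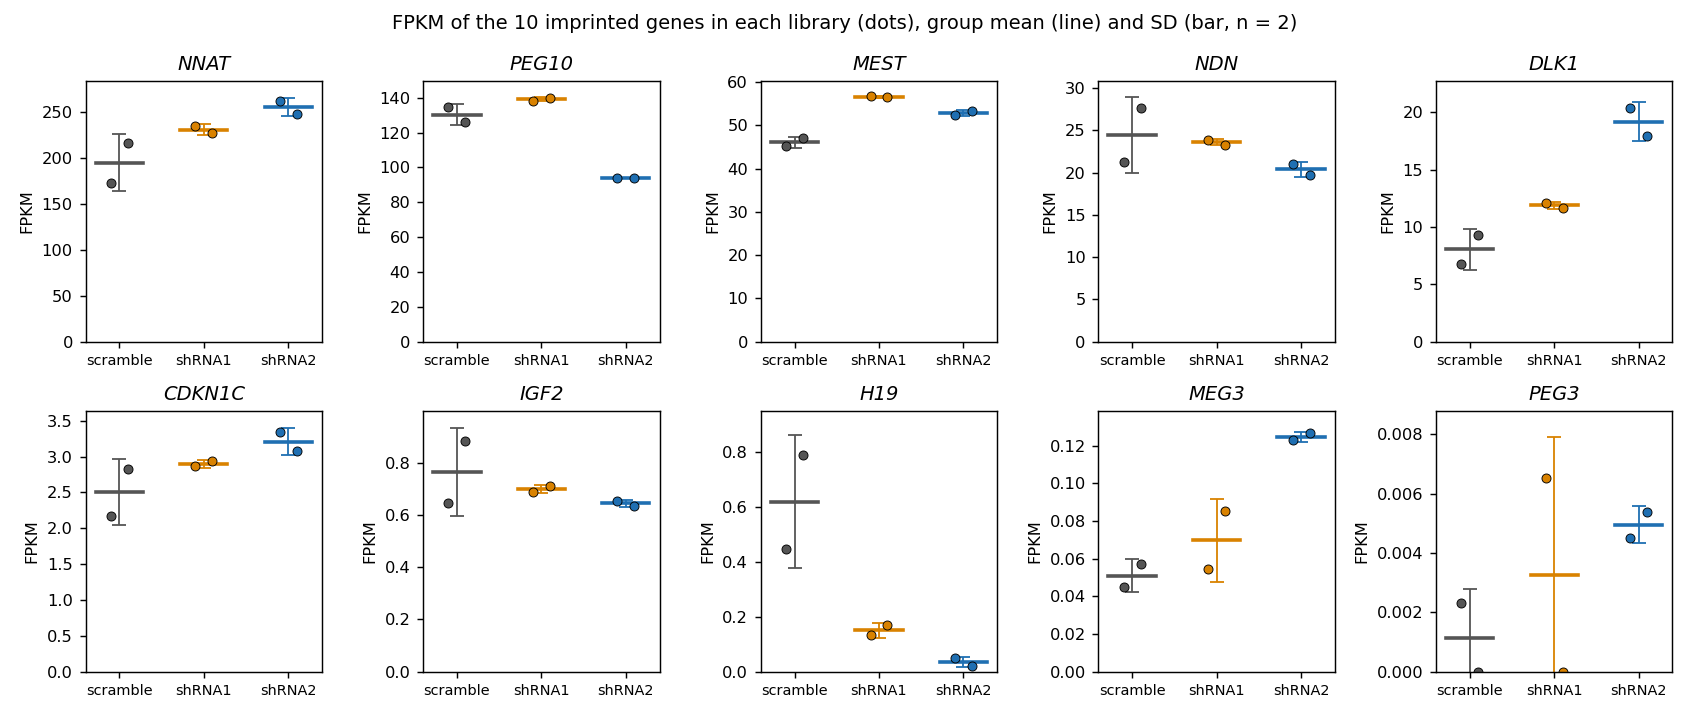
FPKM of each of the 10 genes (vertical axes, linear and starting at 0, with a scale of their own) in the scramble, shRNA1 and shRNA2 groups; dots are libraries, lines group means and bars SD (n = 2). DLK1 runs from 6.81 to 20.4 FPKM with no overlap between the groups, H19 runs the other way from 0.789 to 0.0216 FPKM, and PEG10 is near 94 FPKM in both shRNA2 libraries.

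Of the 6 members tested, 0 passed an adjusted p of 0.05 in any of 4 comparisons: scramble set against the mean of both hairpins, against shRNA1 and against shRNA2, and the hairpins set against each other. Among all 18162 tested genes, 0.0826% passed for both hairpins against scramble (1 higher, 14 lower), 0.033% for shRNA1 (0 higher, 6 lower), 0.628% for shRNA2 (34 higher, 80 lower) and 0% for shRNA2 against shRNA1, so a count of 0 in 6 genes is near the background. With median-of-ratios scaling the split was 10 higher and 18 lower for both hairpins and 43 higher and 48 lower for shRNA2, and with quantile normalization it was 12 and 18, and 37 and 34. At an unadjusted p under 0.05, limma gave 4 of the 6 members for both hairpins (13.8% of all tested genes), 2 for shRNA1 (8.97%), 5 for shRNA2 (19.2%) and 2 for shRNA2 against shRNA1 (16.1%). The comparisons against scramble share the same 2 scramble libraries. For both hairpins, 4 members lay above scramble without overlap of the libraries, where 5.87% of all tested genes did, and 0 lay below, where 12.6% did. For shRNA1 it was 5 above (15.8% of all genes) and 0 below (18.9%), and for shRNA2 it was 4 above (13.3%) and 2 below (34.4%). Between the hairpins 3 members were higher with shRNA2 (16.6%) and 3 lower (46.6%). The median log2 difference of the 6 members for both hairpins was 0.23, beside -0.03 over all tested genes.

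**Figure D2:**
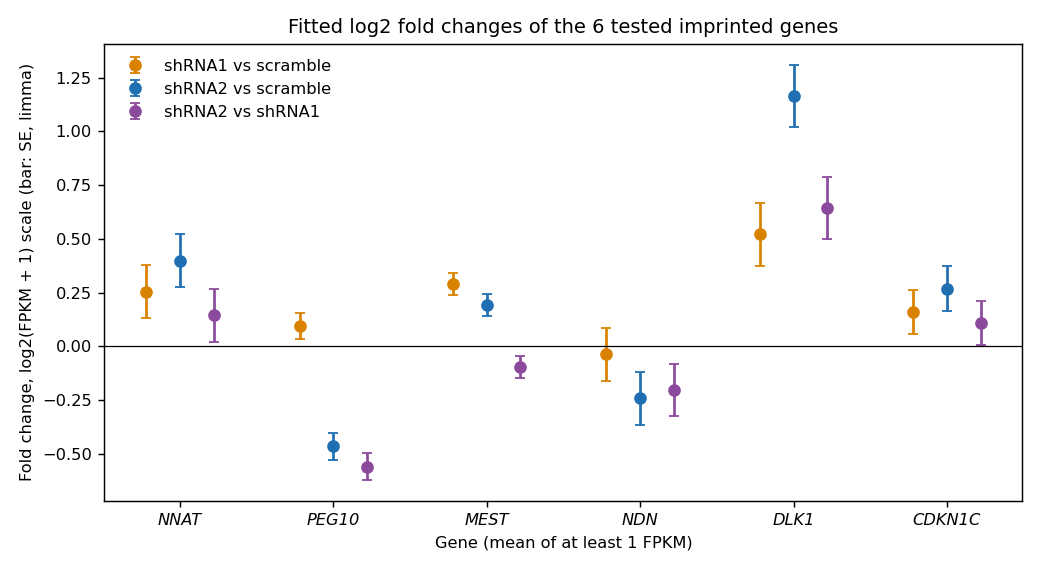
Fitted difference of each tested gene on the log2(FPKM + 1) scale (vertical axis) with its standard error from limma, for shRNA1 and shRNA2 against scramble and for shRNA2 against shRNA1. DLK1 has the highest values, 0.52 and 1.17 against scramble, and PEG10 is at 0.09 with shRNA1 and -0.47 with shRNA2; after quantile normalization PEG10 for both hairpins together, NDN for shRNA1 and MEST for shRNA2 against shRNA1 turned sign.

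H19 and IGF2 lie side by side on chromosome 11 and share enhancers, with a methylated control region between them that lets the maternal copy make H19 and the paternal copy make IGF2. H19 is a long noncoding RNA (11:1995176-2001266, GRCh38.p14) that also carries the hairpin of miR-675. H19 stood at 0.448 and 0.789 FPKM in the scramble libraries, 0.132 and 0.171 with shRNA1, and 0.0495 and 0.0216 with shRNA2. Each shRNA1 library was below each scramble library, and each shRNA2 library was below each shRNA1 library. The mean FPKM in scramble was 4.09 times that with shRNA1 and 17.4 times that with shRNA2.

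The reads behind H19 were few, 60.5 and 177 in scramble, 31.5 and 38.8 with shRNA1, and 12 and 5 with shRNA2, recovered from the FPKM values and a gene length of 2897 bases. Relative to scramble, the H19 share of all reads was 0.227 times as high with shRNA1 (95% exact interval 0.172 to 0.298) and 0.0543 with shRNA2 (0.0311 to 0.0888), intervals that cover counting error only. H19 was under the filter of the main test. With no filter and a pseudocount of 0.1, a setting chosen after seeing the data, its log2 difference was -1.93 for both hairpins, -1.48 for shRNA1 and -2.37 for shRNA2 (limma, Benjamini-Hochberg adjusted p = 0.178, 0.404 and 0.119; with no filter and a pseudocount of 1, 0.221, 0.429 and 0.176). A two-sided exact permutation test of all 4 hairpin libraries against 2 scramble libraries gave p = 0.133, the smallest it can give.

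Summed markers of some other cell types were also highest in scramble. The 10 choroid plexus markers, led by TTR, summed to 8.98 to 9.55 FPKM in the scramble libraries, 2.99 to 3.34 with shRNA1 and 2.32 to 2.50 with shRNA2; 2 of the 10 had a mean of at least 1 FPKM and none was at 0 in all libraries. TTR alone made up 68.3% of the mean scramble sum, and the other 9 summed to 2.92 to 2.95, 2.49 to 2.56 and 2.27 to 2.43 FPKM, with 3 of the 9 below both scramble libraries in all hairpin libraries. The 11 markers of mesenchyme and meningeal fibroblasts, led by COL3A1, summed to 7.23 to 7.74, 2.34 to 2.48 and 2.05 to 2.20 FPKM in the same order. Of these 11, 1 had a mean of at least 1 FPKM and none was at 0 in all libraries. Without COL3A1, 8 of the other 10 were below both scramble libraries in all hairpin libraries; the exceptions were PRRX1, highest with shRNA2 (0.505 and 0.532 FPKM against 0.385 and 0.335 in scramble), and OGN, also highest with shRNA2. The 7 endoderm markers summed to 0.573 to 0.722 FPKM in scramble and at most 0.261 with a hairpin. AFP alone made up 49.8% of the mean scramble sum. SOX17 and FOXA2 were at 0 in all 4 hairpin libraries, but had only 1.99 to 5.48 reads in a scramble library. ALB was not lowered in this way, with 2 and 9 reads in scramble, 17.5 and 13 with shRNA1, and 17 and 9 with shRNA2. The 5 neural crest markers had another order, with 1.54 to 1.76, 1.80 to 1.81 and 2.16 to 2.42 FPKM. The part of these cells in the H19 values was not tested. In bulk samples, fewer cells of a type and less RNA per cell cannot be told apart.

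The miR-675 hairpin (MIR675, inside H19) had 4.5 and 13.3 reads in scramble, 1.5 and 2.83 with shRNA1, and 2 and 0 with shRNA2. Both scramble libraries were the highest, and all 4 hairpin libraries were under 3 reads. These reads cover the hairpin including its host transcript and are not a measure of the mature microRNA. The mature forms are shown because they are the small RNA product of the H19 member, with the seed (bases 2 to 8, which pair with targets) in capitals; sequences are from RefSeq, GRCh38.p14.
miR-675-5p: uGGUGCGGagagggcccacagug
miR-675-3p: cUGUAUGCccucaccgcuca
The arms have different seeds. The 250 bases before the start of H19 (chr11:2001267-2001516, GRCh38.p14, minus strand, RefSeq) are shown beside those of MEG3 further on, since these noncoding members had opposite orders of the groups.
H19: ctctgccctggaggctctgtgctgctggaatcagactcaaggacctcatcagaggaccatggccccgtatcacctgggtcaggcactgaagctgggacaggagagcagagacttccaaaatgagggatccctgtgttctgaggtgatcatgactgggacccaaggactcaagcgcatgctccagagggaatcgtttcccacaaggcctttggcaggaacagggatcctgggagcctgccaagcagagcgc
It holds 4 CpG dinucleotides, where the median of 35116 RefSeq promoter windows is 11 and 70.7% of windows have at least as many. None of 3 motifs searched on both strands was in it. These were TGACGTCA, the cyclic AMP response element, which 1.65% of windows hold; the TATA box as TATAAA, held by 10.7%; and the GC box as GGGCGG, held by 42.6%. They do not overlap one another in the windows shown.

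IGF2 encodes insulin-like growth factor 2, a secreted fetal growth factor (11:2129117-2149566). It was at 0.645 and 0.883 FPKM in the scramble libraries, 0.689 and 0.710 with shRNA1, and 0.654 and 0.633 with shRNA2. The hairpin libraries fell inside the range of the scramble libraries except 1 shRNA2 library just below it. The reads behind these values were 210 to 476 per library. The whole IGF2 gene lies within INS-IGF2, a readthrough gene, so reads cannot be assigned to 1 of them with certainty; INS-IGF2 was at 0.780 to 1.08 FPKM. A two-sided exact permutation test of IGF2 in the 4 hairpin against the 2 scramble libraries gave p = 0.533. H19 and IGF2 therefore differed in how they varied: the H19 groups were ordered with no overlap, and those of IGF2 overlapped for both hairpins.

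Genes for the receptors, binding proteins and signalling partners of insulin-like growth factors were listed as the IGF pathway. Of 23 genes listed for this pathway, 14 were tested and 0 passed in any of the 4 comparisons. For both hairpins 2 were above and 12 below scramble, with a median log2 difference of -0.08, where 6707 of all tested genes were above and 11455 below. IGF1R, the receptor that signals for IGF1 and IGF2, was at 8.44 ± 0.664 FPKM in the scramble libraries, 7.83 ± 0.164 with shRNA1 and 8.20 ± 0.209 with shRNA2 (SD, n = 2 each). IGF2R, which takes up IGF2 for degradation, was at 5.88 ± 0.360, 5.91 ± 0.0911 and 5.79 ± 0.197 FPKM in the same order. The groups of IGF2R overlapped, and the shRNA1 libraries lay just below scramble for IGF1R. IRS1, an adaptor that passes the receptor signal on, was at 4.24 ± 0.210, 3.66 ± 0.0356 and 2.87 ± 0.0896 FPKM, with a log2 difference for shRNA2 of -0.44 ± 0.0575 (SE, limma, Benjamini-Hochberg adjusted p = 0.062). The mRNA-binding protein gene IGF2BP1, the highest of the list, was at 25.1 ± 0.814, 21.98 ± 0.124 and 25.1 ± 0.231 FPKM. IGFBP5, a secreted binding protein chosen here after its values were seen, was at 1.66 and 1.82 FPKM in the scramble libraries, 1.08 and 0.934 with shRNA1 and 0.830 and 0.974 with shRNA2, a log2 difference for both hairpins of -0.49 ± 0.0694 (adjusted p = 0.115). STC1, of the same list and also chosen afterwards, went the other way. Its mean FPKM was 1.72 times that in scramble with shRNA1 and 1.45 times with shRNA2. IGF1, the sister ligand, also chosen afterwards, was at most 0.0102 FPKM.

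CDKN1C encodes p57, an inhibitor of cyclin-dependent kinases that slows the cell cycle, and is expressed from the maternal copy of another domain of chromosome 11 (11:2883218-2885775). It was at 2.18 and 2.83 FPKM in the scramble libraries, 2.86 and 2.94 with shRNA1, and 3.34 and 3.07 with shRNA2. All 4 hairpin libraries were above both scramble libraries, the lowest by a small margin. The log2 difference was 0.16 ± 0.103 for shRNA1 and 0.27 ± 0.103 for shRNA2 (SE, limma, Benjamini-Hochberg adjusted p = 0.754 and 0.25). Without scramble replicate 1 these differences were 0.0256 and 0.13, and without scramble replicate 2 they were 0.30 and 0.40. KCNQ1OT1, the long noncoding RNA that silences this domain on the paternal copy, was at 1.24 ± 0.0731 FPKM in the scramble libraries, 1.45 ± 0.00758 with shRNA1 and 1.52 ± 0.0499 with shRNA2, with adjusted p = 0.331 for both hairpins. Other inhibitors of the class were tested too and did not pass: CDKN1B (p27) was at 14.2 ± 0.433, 14.04 ± 0.305 and 13.9 ± 0.224 FPKM, and CDKN1A (p21) at 7.06 ± 1.40, 7.41 ± 0.301 and 5.597 ± 0.296 FPKM.

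DLK1 and MEG3 belong to 1 imprinted domain of chromosome 14, with DLK1 made from the paternal copy and MEG3 from the maternal copy. DLK1 encodes a transmembrane protein related to Notch ligands that keeps precursor cells immature (14:100726892-100738224). It was at 6.81 and 9.33 FPKM in the scramble libraries, 12.1 and 11.7 with shRNA1, and 20.4 and 18.0 with shRNA2. The 3 groups did not overlap, with scramble lowest and shRNA2 highest. The ratio of mean FPKM to scramble was 1.47 for shRNA1 and 2.38 for shRNA2, with 1686 to 9063 reads per library. The log2 difference was 0.52 ± 0.145 for shRNA1, 1.17 ± 0.145 for shRNA2 and 0.64 ± 0.145 for shRNA2 against shRNA1 (SE, limma, Benjamini-Hochberg adjusted p = 0.423, 0.055 and 0.177), and 0.84 ± 0.125 for both hairpins (adjusted p = 0.115). DLK1 thus missed the threshold in each comparison while having the greatest difference of the 6 tested members against scramble.

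DLK1 passed in some alternatives. With all libraries kept, the adjusted p for shRNA2 (limma, Benjamini-Hochberg) was 0.0277 among genes averaging at least 5 FPKM, 0.0453 with median-of-ratios scaling and 0.0412 with quantile normalization. It was 0.1265 with no filter, 0.168 with the replicate block and 0.211 with only the groups compared. Without scramble replicate 1 the DLK1 difference was 0.96 for shRNA2, 0.64 for both hairpins and 0.32 for shRNA1. Without scramble replicate 2 it was 1.37 for shRNA2. A fit without 1 scramble library takes its spread from the hairpin groups alone, which had the lower median SD. P-values of such fits are therefore not given. For shRNA2 against shRNA1 the adjusted p was 0.0444 with only those groups fitted, where scramble adds no spread either, and 0.369 with the replicate block.

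MEG3 is a long noncoding RNA that restrains growth (14:100826108-100861026). It was at 0.0448 and 0.0572 FPKM in the scramble libraries, 0.0543 and 0.0853 with shRNA1, and 0.123 and 0.127 with shRNA2. The shRNA1 libraries overlapped scramble, and both shRNA2 libraries lay above all others. The recovered reads were 48.5 and 103 in scramble, 104 and 155 with shRNA1, and 238 and 235 with shRNA2 over 23214 bases. The mean FPKM with shRNA2 was 2.45 times that in scramble, and the ratio of its shares of all reads was 2.37 (95% exact interval 1.97 to 2.87, counting error only). With no filter and a pseudocount of 0.1 the log2 difference for shRNA2 was 0.57 (limma, Benjamini-Hochberg adjusted p = 0.293), and with a pseudocount of 1 it was 0.10 (0.224). A two-sided exact permutation test of both hairpins against scramble gave p = 0.267.

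The 250 bases before the start of MEG3 (chr14:100825858-100826107, GRCh38.p14, plus strand, RefSeq; the first of 3 RefSeq starts) are shown for the contrast with H19, with the matches to TGACGTCA and TATAAA in capitals.
MEG3: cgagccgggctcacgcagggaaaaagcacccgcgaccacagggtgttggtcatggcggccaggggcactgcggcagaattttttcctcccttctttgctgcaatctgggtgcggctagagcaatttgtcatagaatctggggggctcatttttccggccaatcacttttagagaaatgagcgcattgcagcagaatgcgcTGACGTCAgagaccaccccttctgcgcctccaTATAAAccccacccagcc
It holds 1 TGACGTCA, 1 TATAAA and 13 CpG dinucleotides, and 46.6% of all windows have at least as many CpG. The motif matches are a description of these letters and not of binding. Promoter windows were matched for 4 of the 10 members: H19, MEG3, NDN and MEST.

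Other transcripts of the domain were also measured. MEG8, a further maternal noncoding RNA, was at 0.0390 and 0.0749 FPKM in the scramble libraries, 0.0899 and 0.0840 with shRNA1, and 0.113 and 0.127 with shRNA2; MEG8 and the next gene were chosen after their values were seen. RTL1, a paternally expressed gene derived from a retrotransposon, was at 0.151 and 0.148 FPKM in the scramble libraries, 0.185 and 0.215 with shRNA1, and 0.226 and 0.198 with shRNA2. Both had all hairpin libraries above both scramble libraries. MEG9, another noncoding RNA of the domain, did not share this order. It had 3 and 15 recovered reads in scramble, 12.5 and 2 with shRNA1, and 8.33 and 5.67 with shRNA2. DIO3, which encodes the enzyme that inactivates thyroid hormone and lies at the far end of the domain, was at 1.34 and 1.92 FPKM in the scramble libraries, 2.11 and 1.99 with shRNA1, and 1.33 and 1.29 with shRNA2. It was highest with shRNA1 and lowest with shRNA2, unlike DLK1 and MEG3, with a log2 difference between the hairpins of -0.40 ± 0.116 (SE, limma, Benjamini-Hochberg adjusted p = 0.232).

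The 33 box C/D small nucleolar RNA genes of the domain (SNORD112, SNORD113 and SNORD114) summed to 0.279 and 0.167 reads per 1000000 library reads in scramble, 0.253 and 0.331 with shRNA1, and 0.679 and 0.733 with shRNA2. The sums stood on 12.9 to 58.6 reads per library, and the shRNA2 libraries lay above all others. The 32 microRNA hairpin genes of the domain that were in the table summed to 0.290 and 0.218 on the same scale in scramble, 0.334 and 0.416 with shRNA1, and 0.311 and 0.340 with shRNA2. These sums stood on 13.5 to 32.7 reads per library. They were above scramble with both hairpins, but the lowest hairpin library (0.311) was close to the highest scramble library (0.290) for so few reads. No excess with shRNA2 over shRNA1 was seen at this depth.

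**Figure D3:**
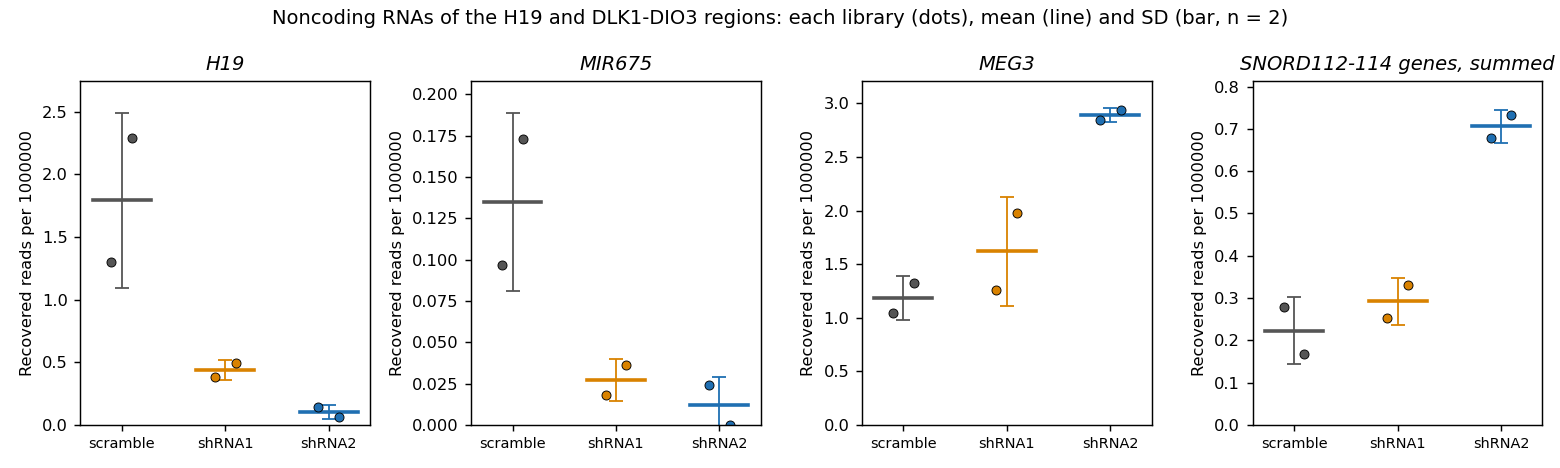
Recovered reads per 1000000 library reads (vertical axes, starting at 0) of H19, MIR675, MEG3 and the summed small nucleolar RNA genes in each group; dots are libraries, lines means and bars SD (n = 2). H19 is lower with shRNA1 than with scramble and lowest with shRNA2, on 5 to 177 reads per library, while MEG3 and the small nucleolar RNAs are highest in both shRNA2 libraries.

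Pluripotent cell markers also differed between the groups. The 7 markers summed to 7.61 to 7.74 FPKM in the scramble libraries, 8.86 to 8.90 with shRNA1 and 16.2 to 16.2 with shRNA2, the same order as DLK1. The sum came from DPPA4, LIN28A and SALL4, which had means of at least 1 FPKM, whereas POU5F1 and NANOG, which define pluripotent cells, were at most 0.0498 and 0.0687 FPKM and none was at 0 in all libraries. These low genes were highest with shRNA2 too: NANOG had 2 and 1 reads in scramble, 5 and 2 with shRNA1, and 31 and 18 with shRNA2, and TDGF1 was at 0.00713 and 0.00862 FPKM in scramble, 0.0141 and 0.0127 with shRNA1, and 0.186 and 0.241 with shRNA2. Their part in the DLK1 and MEG3 values was not tested. Pearson correlation over the 6 libraries is given as a description of libraries that share groups and depth. Symbols of clones and small RNAs, those starting with LINC or LOC, and those ending in P and a digit were left out. Of the other tested genes, the most like DLK1 were FEZF1-AS1 (r = 0.996), ADAM3B (0.995) and CCDC144NL-AS1 (0.992). FEZF1-AS1 was at 5.32 and 6.18 FPKM in the scramble libraries, 6.70 and 6.62 with shRNA1, and 8.28 and 7.63 with shRNA2. No other tested member spanned more than 1 on the log2 scale, the span set for such a search.

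PEG10 is a paternally expressed gene on chromosome 7, derived from a retrotransposon, that is required for the placenta and is translated by a programmed frameshift (7:94656325-94669695). It was at 135 and 126 FPKM in the scramble libraries, 138 and 140 with shRNA1, and 93.9 and 94.2 with shRNA2. On these FPKM values, with no added scaling, both shRNA1 libraries were above and both shRNA2 libraries below scramble. The summed FPKM differed between the scramble libraries (184241 and 237698), and whether this order holds relative to that sum was not tested. The log2 difference was 0.09 ± 0.0622 for shRNA1, -0.47 ± 0.0622 for shRNA2 and -0.56 ± 0.0622 for shRNA2 against shRNA1 (SE, limma, Benjamini-Hochberg adjusted p = 0.763, 0.063 and 0.0976). The mean of both hairpins, -0.19 ± 0.0539 (adjusted p = 0.254), joins groups that lie on opposite sides of scramble, and it was 0.04 after quantile normalization. The reads behind PEG10 were 41965 to 76192 per library, the most of any member.

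PEG10, like DLK1, passed in some alternatives. For shRNA2 the adjusted p (limma, Benjamini-Hochberg) was 0.0316 among genes averaging at least 5 FPKM, 0.203 with the replicate block and 0.545 with quantile normalization. With quantile normalization the shRNA2 difference was -0.14 against scramble and -0.35 against shRNA1 (0.216). Without scramble replicate 1 the shRNA2 difference from scramble was -0.42, and without scramble replicate 2 it was -0.51. The shRNA1 difference was 0.0479 without scramble replicate 2 and 0.21 after quantile normalization. For shRNA2 against shRNA1 the adjusted p was 0.0389 among genes averaging at least 5 FPKM, 0.041 with only the groups compared and 0.328 with the replicate block. SGCE, the neighbour that starts 191 bases away on the other strand and shares the imprint, was at 2.36 and 2.22 FPKM in the scramble libraries, 2.26 and 2.25 with shRNA1, and 2.06 and 1.92 with shRNA2. It was also lowest with shRNA2, with a log2 difference of -0.14 ± 0.0605 against scramble (adjusted p = 0.297).

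MEST, on another part of chromosome 7, encodes an enzyme of the alpha/beta hydrolase fold expressed in mesoderm and brain (7:130486175-130506465). It was at 45.2 and 47.0 FPKM in the scramble libraries, 56.7 and 56.5 with shRNA1, and 52.4 and 53.3 with shRNA2. All 4 hairpin libraries were above both scramble libraries, with replicates close together in every group. The log2 difference was 0.29 ± 0.0511 for shRNA1 and 0.19 ± 0.0511 for shRNA2 (SE, limma, Benjamini-Hochberg adjusted p = 0.298 and 0.156). Without scramble replicate 1 the shRNA2 difference was 0.17, and after quantile normalization with all libraries it was 0.40 (adjusted p = 0.0608). The difference between the hairpins was -0.10 ± 0.0511 (adjusted p = 0.409) and turned to 0.0026 after quantile normalization.

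Transcripts beside MEST showed the same order of groups. COPG2, which encodes a coat protein of Golgi vesicles and shares 228 bases with MEST at the ends of both genes, was at 20.2 and 20.2 FPKM in the scramble libraries, 26.9 and 26.5 with shRNA1, and 23.2 and 23.0 with shRNA2. Its log2 difference was 0.29 ± 0.0389 for both hairpins (SE, limma, Benjamini-Hochberg adjusted p = 0.115). COPG2IT1, a noncoding transcript within COPG2, was at 46.2 and 35.3 FPKM in the scramble libraries, 61.8 and 61.5 with shRNA1, and 48.5 and 52.4 with shRNA2 (adjusted p = 0.218 for both hairpins). Both were highest in the shRNA1 libraries. Strand use in counting is not given in the sources used here, so reads of these overlapping genes cannot be assigned with certainty. MIR335, a microRNA hairpin inside MEST, was at 4.64 and 4.20 FPKM in the scramble libraries, 6.78 and 4.50 with shRNA1, and 5.22 and 4.52 with shRNA2, on 20.3 to 52.5 reads that cover the host transcript too. Its scramble libraries overlapped those of both hairpins. Its mature forms, the small RNA product of MEST, have different seeds (capitals, bases 2 to 8; RefSeq, GRCh38.p14).
miR-335-5p: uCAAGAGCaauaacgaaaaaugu
miR-335-3p: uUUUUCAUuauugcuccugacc

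**Figure D4:**
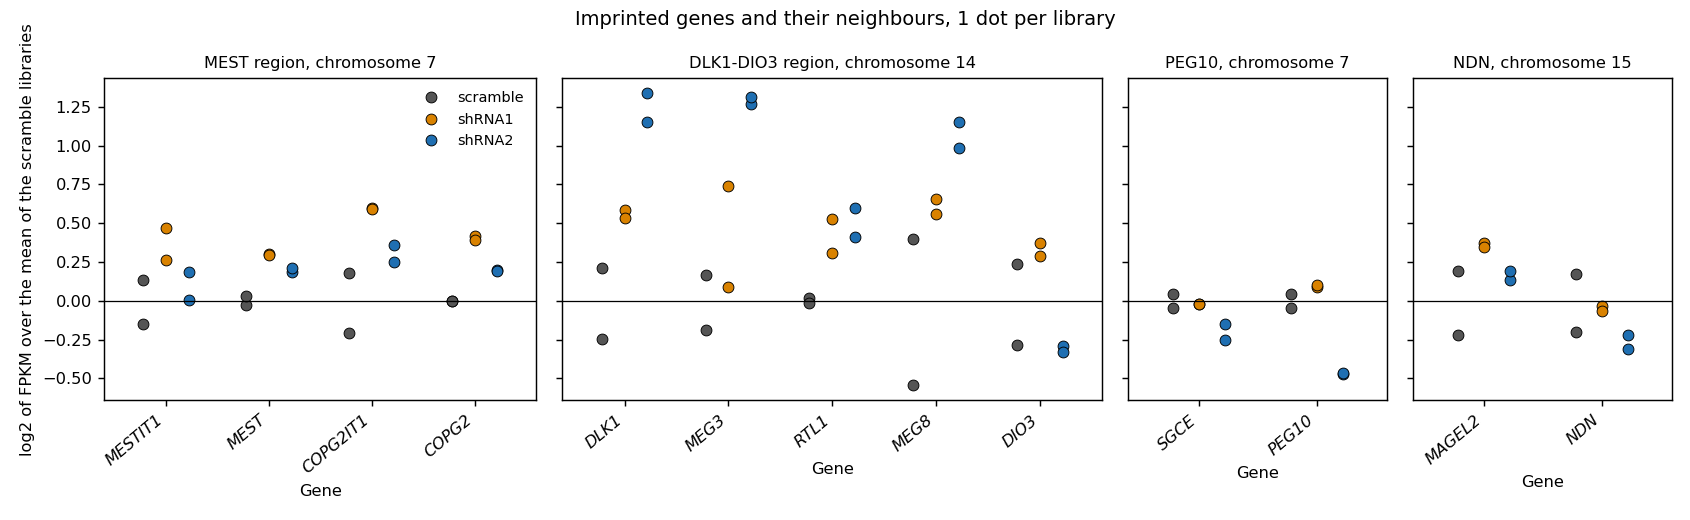
Level of 13 genes of 4 imprinted regions in each library, as log2 of FPKM over the mean of the scramble libraries (vertical axis, 0 is that mean); columns are genes and colours are groups. In the MEST region both shRNA1 libraries are highest, both shRNA2 libraries are highest for DLK1, MEG3 and MEG8, and PEG10 is lowest with shRNA2.

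NNAT encodes neuronatin, a small membrane protein of the endoplasmic reticulum abundant in developing neurons, and lies within an intron of BLCAP on chromosome 20 (20:37521250-37523690). It was at 172 and 217 FPKM in the scramble libraries, 235 and 227 with shRNA1, and 262 and 248 with shRNA2. All 4 hairpin libraries were above both scramble libraries. The log2 difference was 0.25 ± 0.123 for shRNA1 and 0.40 ± 0.123 for shRNA2 (SE, limma, Benjamini-Hochberg adjusted p = 0.656 and 0.19). For shRNA2 it was 0.67 after quantile normalization (adjusted p = 0.041) but 0.40 with the replicate block (0.326). The shRNA2 difference was 0.56 without scramble replicate 2 and 0.23 without scramble replicate 1. For shRNA1 it was 0.09 without scramble replicate 1 and 0.42 without scramble replicate 2. The host gene BLCAP was at 9.61 ± 0.973 FPKM in the scramble libraries, 10.7 ± 0.0360 with shRNA1 and 10.6 ± 0.429 with shRNA2 (SD, n = 2), with an adjusted p of 0.456 for both hairpins. The 10 neuron markers summed to 369 to 374 FPKM in the scramble libraries, 387 to 391 with shRNA1 and 336 to 337 with shRNA2, an order unlike that of NNAT.

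NDN encodes necdin, a MAGE family protein that restrains growth of neurons, in the Prader-Willi region of chromosome 15 (15:23685400-23687305). It was at 21.3 and 27.6 FPKM in the scramble libraries, 23.8 and 23.3 with shRNA1, and 21.0 and 19.7 with shRNA2. The shRNA1 libraries lay between the scramble libraries, and both shRNA2 libraries lay just below the lower one. The log2 difference was -0.04 ± 0.123 for shRNA1 and -0.24 ± 0.123 for shRNA2 (SE, limma, Benjamini-Hochberg adjusted p = 0.978 and 0.355). Without scramble replicate 1 the shRNA2 value was -0.42. It was -0.0611 without scramble replicate 2 and -0.0609 after quantile normalization (adjusted p = 0.843). For shRNA1 the sign turned, to 0.14, without scramble replicate 2, and to 0.03 after quantile normalization, and for both hairpins it turned from -0.14 to 0.04 without scramble replicate 2.

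MAGEL2, another MAGE family gene 37532 bases away, was at 3.06 and 4.06 FPKM in the scramble libraries, 4.61 and 4.52 with shRNA1, and 3.90 and 4.07 with shRNA2, with the shRNA1 libraries highest (limma, Benjamini-Hochberg adjusted p = 0.413 for both hairpins). SNRPN, which encodes a splicing protein, was at 9.61 ± 0.676, 10.1 ± 0.213 and 9.47 ± 0.0657 FPKM in the scramble libraries, shRNA1 and shRNA2 (SD, n = 2). UBE3A, the maternally expressed ubiquitin ligase of the region in neurons, was at 9.34 ± 1.19, 9.22 ± 0.125 and 9.11 ± 0.392 FPKM. The groups of UBE3A differed by less than the SD of scramble.

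PEG3, a zinc finger gene on chromosome 19 that shares its start with ZIM2 (19:56810082-56840726), was barely detected. It was at 0.0023 and 0 FPKM in the scramble libraries, 0.0065 and 0 with shRNA1, and 0.0045 and 0.0054 with shRNA2. These are about 1 to 5 reads where it was detected, so no difference between the groups was detectable at this depth.

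Over the wider set of imprinted genes, 57 others were listed, 52 were in the table and 26 were tested, and 0 passed in any comparison. For both hairpins 18 were above and 8 below scramble with a median log2 difference of 0.04. For shRNA1 it was 21 above and 5 below, and for shRNA2 12 above and 14 below. Over all tested genes 6707 were above and 11455 below for both hairpins, 8885 and 9277 for shRNA1, and 5874 and 12288 for shRNA2. GNAS, a G protein subunit gene, was at 36.4 ± 3.18 FPKM in the scramble libraries, 40.4 ± 0.00197 with shRNA1 and 35.1 ± 1.30 with shRNA2 (SD, n = 2). Among 15 tested genes of imprint control and cyclin-dependent kinase inhibition, 0 passed, with 2 above and 13 below scramble for both hairpins and a median log2 difference of -0.09. TRIM28, the corepressor that protects methylation at imprints, was at 31.1 ± 6.90, 27.7 ± 0.00145 and 27.5 ± 1.56 FPKM in the scramble libraries, shRNA1 and shRNA2. DNMT3A, a DNA methyltransferase that sets imprints, was at 9.08 ± 0.650, 8.93 ± 0.147 and 7.77 ± 0.0405 FPKM, with a log2 difference of -0.20 ± 0.0614 for shRNA2 (SE, limma, Benjamini-Hochberg adjusted p = 0.189). TRIM28 overlapped between scramble and shRNA2, and DNMT3A lay lower with shRNA2 without overlap. DNMT3B, another DNA methyltransferase, chosen after its values were seen, lay higher with shRNA2 without overlap, at 4.39 and 4.57 FPKM in the scramble libraries, 4.55 and 4.61 with shRNA1, and 5.81 and 5.52 with shRNA2 (log2 difference for shRNA2 0.28 ± 0.0535, adjusted p = 0.1).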

How the data were processed

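The authors deposited 1 FPKM value for each gene entry and library, per the file headers. Upstream tools named in the submitters' processing notes were HISAT2 2.1.0 for GRCh38, Trimmomatic 0.39, featureCounts 2.0.1 and SAMtools 1.9. Which annotation was used, whether strand was counted and how reads matching several places were handled is not given in the sources used here. RNA was extracted with Trizol, depleted of ribosomal RNA and made into libraries with the KAPA RNA HyperPrep kit, per the labels' protocols. Tests used log2 of FPKM plus a pseudocount of 1, with no added scaling, on 18162 genes averaging 1 FPKM or more, a scale that understates differences of low genes. A single limma fit (version 3.58.1 in R 4.3.3, mean-variance trend) covered the 3 groups; p-values were adjusted by Benjamini-Hochberg across all of those genes, with a threshold of 0.05. The script was tested on simulated data. Library totals and reads per gene were recovered from the steps between FPKM values and serve as description. Some recovered read numbers were fractions, such as 60.5 for H19 in scramble replicate 1. The exact intervals used summed reads rounded to whole numbers, so they are approximate. Python 3.11.15, pandas 2.3.3 and scipy 1.17.1 did the rest.

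The 10 members and all lists were chosen with earlier results of these data known. Named were all members and tested neighbours of members. From each list only some of the 8 genes with the highest mean FPKM were named. Some genes outside this choice were named after their values were seen. For a member that spans over 1 on the log2 scale, the 3 genes most like it were named, among tested genes with symbols kept for that search. RTN4 was the label check. Positions and sequences are from RefSeq, GRCh38.p14. Alternatives were the pseudocount, the filter, scaling, the samples fitted, a replicate block and leaving out each library.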

Additional observations from a re-analysis of the deposited data

Results flagged for a closer look

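In FPKM with no added scaling, PEG10 lay above both scramble libraries in both shRNA1 libraries and below both in both shRNA2 libraries. The log2 difference of shRNA2 against shRNA1 was -0.56 ± 0.0622 (SE, limma, Benjamini-Hochberg adjusted p = 0.0976), so it was tested and did not pass as reported. The outcome depended on the setting. The adjusted p was 0.0389 at a mean of at least 5 FPKM and 0.041 with only the groups compared. It was 0.216 with quantile normalization and 0.328 with the replicate block.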

How the results depend on the processing

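Of 24 member differences with a test, 20 kept their direction under every alternative run and 0 passed as reported. Differences of DLK1, PEG10 and NNAT passed in some alternatives that kept 2 libraries in each group fitted. The 4 that turned were PEG10 for both hairpins with quantile normalization (0.0385), NDN for both hairpins leaving out 1 library (-0.319 to 0.0404, positive without scramble replicate 2), NDN for shRNA1 with quantile normalization (0.0314) and leaving out 1 library (-0.218 to 0.142, positive without scramble replicate 2), and MEST for shRNA2 against shRNA1 with quantile normalization (0.0026). The cause was not tested.

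The counts of genes that passed moved more. For both hairpins against scramble, 15 as reported, the count was 0 with no filter, 35 at a mean of at least 5 FPKM, 28 with median-of-ratios scaling, 30 with quantile normalization, 7 with only the groups compared, 1 with the replicate block and 0 with no filter and a pseudocount of 0.1, and 0 to 507 leaving out 1 library, the highest without scramble replicate 1. For shRNA1, 6 as reported, it was 2 with a pseudocount of 0.1, 0 with no filter, 3 at 5 FPKM, 0 with only the groups compared, 0 with the replicate block, 0 with no filter and a pseudocount of 0.1, and 0 to 1 leaving out 1 library. For shRNA2, 114 as reported, it was 0 with no filter, 261 at 5 FPKM, 71 with quantile normalization, 1 with only the groups compared, 0 with the replicate block, 0 with no filter and a pseudocount of 0.1, and 0 to 2418 leaving out 1 library, the highest without scramble replicate 1 and 534 without scramble replicate 2. For shRNA2 against shRNA1, 0 as reported with 2929 at an unadjusted p under 0.05, it was 46 at 5 FPKM, 957 with only the groups compared and 0 to 1029 leaving out 1 library, with 978 and 1029 without scramble replicates 1 and 2.

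Same-numbered replicates did not deviate together (correlations -0.00768, -0.15 and 0.0122). The labels do not say whether the numbers pair the libraries, and 2 libraries per group cannot settle it. With the replicate block 0 of the 24 member differences passed. Depth limits H19, MEG3, MIR675, the small nucleolar RNAs, the summed microRNA hairpins and PEG3. All tests are limited by 2 libraries per group: the smallest two-sided exact permutation p is 0.333 for 2 against 2 libraries.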
